A study of Mus musculus with 39 samples.

Results

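The testes of INSL3-KI mice were compared between postnatal day 23 (P23) and postnatal day 8 (P8), the interval of the first wave of spermatogenesis. The comparison used 6 of the 39 RNA-seq libraries of the series, chosen by genotype, tissue and age, namely 3 biological replicates of INSL3-KI testis at P8 and 3 at P23. According to the study's methods, INSL3-KI mice carry the INSL3 cDNA of the minke whale, a cetacean with natural cryptorchidism, targeted to the mouse Insl3 locus, and the selection cassette was removed by crossing to Cre females. Both groups were untreated males on the C57BL/6J background, homozygous for the same knock-in allele. INSL3-KI testes stay in the groin and homozygous males are infertile, so age and the time spent in the wrong position cannot be told apart within this genotype. The labels call the libraries biological replicates and do not say whether each held the testes of 1 mouse, so p-values measure the spread between these samples. Age-matched testes of WT mice and INSL3-KO mice, 3 libraries in each group, were used only to ask whether the change with age differed.

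Spermatogenesis starts shortly after birth, when spermatogonia, supported by Sertoli cells, begin to divide and then differentiate under the control of retinoic acid. Differentiated spermatogonia enter meiosis as spermatocytes, in which homologous chromosomes are joined by the synaptonemal complex and recombine, and the haploid spermatids that follow build an acrosome and a flagellum and replace their histones with transition proteins and protamines. Because the cells of the first wave advance together, the germ cell types present in the testis of a young mouse mark its age.

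The 6 libraries held between 33000204 and 42629270 counts, of which between 96.8% and 97.9% fell in annotated genes. Of 22036 annotated genes, 16580 had enough counts to be tested. Within each age, 1 library stood apart. P8 replicate 2 correlated with P8 replicates 1 and 3 at r = 0.960 and 0.951 on the log2(CPM + 1) scale, where CPM is the count scaled to the size of the library, and with P23 replicate 3 at r = 0.945, whereas P8 replicates 1 and 3 correlated at r = 0.992. P23 replicate 3 correlated with P23 replicates 1 and 2 at r = 0.955 and 0.934, against r = 0.992 between P23 replicates 1 and 2. P8 replicate 2 had higher levels of spermatocyte genes than the other P8 libraries, and P23 replicate 3 had lower levels of spermatid genes than the other P23 libraries. The counts of genes called in each list are therefore also given without both. These libraries were picked after seeing the data, by genes that change with age. Leaving them out widens the gap between the ages, so more calls and smaller p-values follow from the choice itself. Markers of other tissues also varied between replicates. The epididymis list summed to 0.178, 0.610 and 102 CPM in the P8 libraries and to 11.7, 7.57 and 3.02 CPM in the P23 libraries, the adipocyte list to 91.5, 29.99 and 143 CPM and to 15.7, 108 and 36.1 CPM, and the erythroid list to 93.6, 100.3 and 221 CPM and to 131, 201 and 266 CPM. P8 replicate 3 was the highest P8 library in all 3 lists. The part of these tissues in the results was not tested.

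Insl3 itself (ENSMUSG00000079019, GRCm38 chr8:71689214-71690575), the Leydig cell hormone whose coding sequence was replaced, was counted 33, 15 and 26 times in the P8 libraries and 52, 66 and 84 times at P23. WT testes had between 2722 and 3524 counts at P8 and between 20844 and 25238 at P23, so mouse Insl3 was near the floor in all 6 INSL3-KI libraries. The libraries labelled KO at P8 had between 613 and 906 counts, which goes against their label, and those labelled KO at P23 had 0, 5 and 0. Rxfp2 (ENSMUSG00000053368, GRCm38 chr5:150018675-150082184), which encodes the INSL3 receptor, had 3, 19 and 0 counts at P8 and 172, 243 and 72 at P23. Each P23 library was above each P8 library, with a log2 fold change of 4.56 ± 1.22 (SE) and an edgeR adjusted p of 0.0268, which misses the threshold of 0.01 used for all calls. Without P8 replicate 2 and P23 replicate 3 its log2 fold change was 7.41.

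Between P8 and P23, 939 genes rose and 578 fell by edgeR's quasi-likelihood test, 5.66% and 3.49% of the genes tested. Here and for all gene lists a gene was called, and said to rise or fall, where its adjusted p was below 0.01 and its level differed by a factor of 2 or more. The 3 libraries of one age lay wholly above or below those of the other for far more genes. 4839 genes (29.2%) were higher in each P23 library than in each P8 library and 5258 (31.7%) were lower, and 28.0% and 27.6% were higher or lower at an unadjusted p under 0.05. The 939 genes that rose held 96 without a single count at P8. Without P8 replicate 2, 1995 genes rose and 801 fell (11.7% and 4.69%), without P23 replicate 3, 2887 rose and 1663 fell (16.9% and 9.74%), and without both, 4431 rose and 2662 fell (26.1% and 15.7%). With DESeq2 on all 6 libraries 3580 rose and 1446 fell (19.6% and 7.9%). The shares in this paragraph are the background for the counts in the gene lists below. All 939 rising genes and 550 of the 578 falling genes were called in the same direction without both. Without P8 replicate 1, P8 replicate 3, P23 replicate 1 or P23 replicate 2, in contrast, edgeR called 0 genes, although between 6727 and 7202 genes had an unadjusted p under 0.05. The smallest adjusted p of any gene was 0.0088, so each call in this comparison lies close to the threshold. Among all genes the median log2 fold change was −0.09, and it was −0.41 when libraries were scaled by their totals alone and 0.70 when they were scaled on Sertoli cell genes. Scaled by totals, 1020 genes rose and 966 fell, so that rising genes made up 51.4% of the calls against 61.9% with TMM. In bulk tissue, fewer cells of a type and less RNA per cell cannot be told apart.

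**Figure D1:**
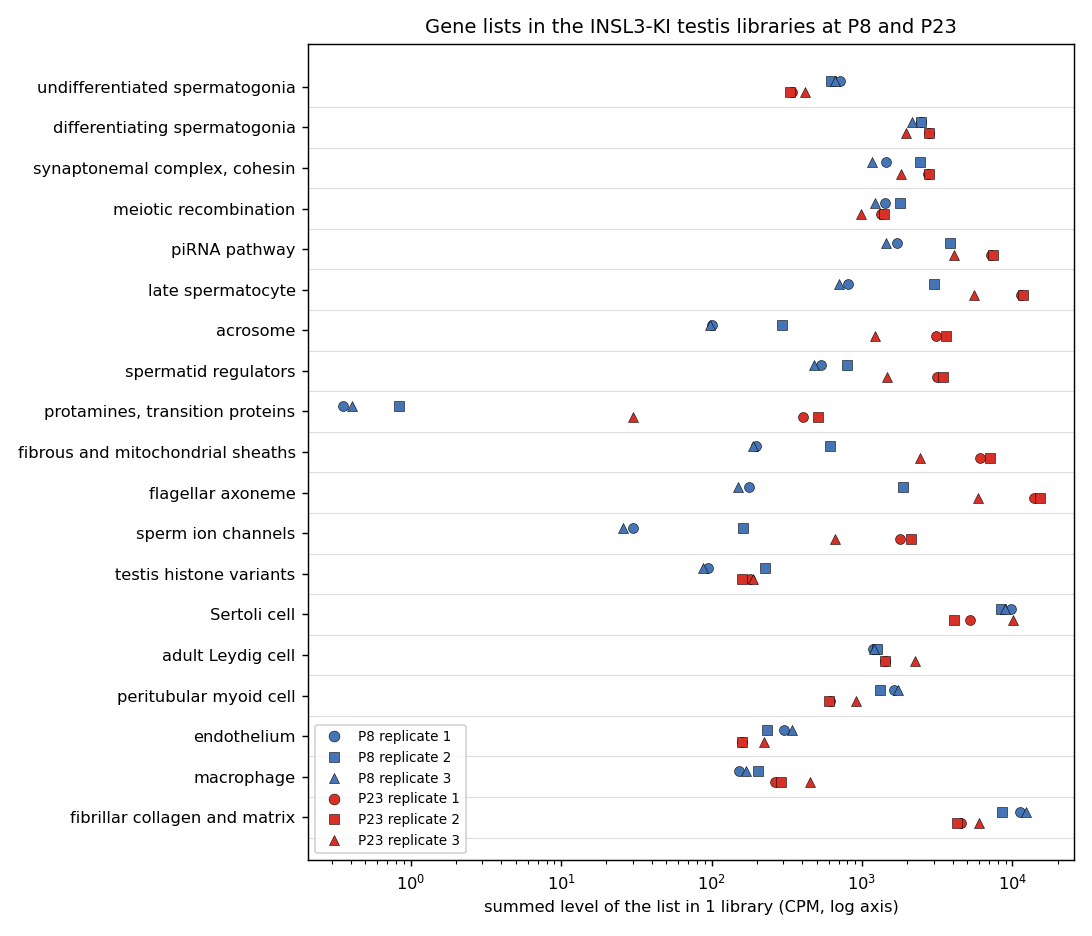
Summed level of each germ cell and somatic gene list in each of the 6 INSL3-KI testis libraries, in CPM on a log10 axis, with blue points for single libraries at P8, red points at P23 and a marker shape for each replicate. The axoneme list sums to 176, 1885 and 151 CPM at P8 and to 13899, 15150 and 5867 CPM at P23, and P8 replicate 2 and P23 replicate 3 stand between the other libraries.

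The 8 genes with the largest rise, among called genes of at least 10 CPM, had no count at P8 in any library. Tex33, a testis-expressed gene on chromosome 15 (ENSMUSG00000062154, GRCm38 chr15:78378400-78395912), reached 58.4, 92.4 and 14.9 CPM at P23 from 0 in each P8 library. With 3 counts per library as the floor, this was at least 706-fold higher (edgeR adjusted p = 0.00895). Another 6 of them, Allc, Gtsf1l, Ccdc54, Actrt2, Fscb and Spata31, were at least 501-fold to 662-fold higher at P23. In each of these 8 genes P23 replicate 3 was the lowest P23 library. At the other end, Dlk1, an imprinted gene of fetal and immature somatic cells, fell from 244, 103 and 235 CPM to 10.7, 7.82 and 16.0 CPM, a log2 fold change of −4.08 ± 0.45 (SE; edgeR adjusted p = 0.0088). P8 replicate 2 was the lowest P8 library and the ages did not overlap. The other genes among the 8 with the largest fall were Sel1l3, Bcan, H2-Q10, Zim1, Cldn1, Shisa8 and Col9a2, with log2 fold changes from −4.54 to −3.55. Zim1 is, like Dlk1, an imprinted gene, and Col9a2 encodes a collagen chain.

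The promoters of all RefSeq genes were searched for 3 short motifs of factors known to act in spermatocytes and spermatids. The search covered both strands, from 250 bases before to 50 bases after each RefSeq start. These were GTTGCCA, an X-box half-site bound by RFX factors, which control genes of cilia and flagella, GGCAGTT, a core site of the MYB family to which the meiotic regulator MYBL1 belongs, and TGACGT, the core of the cAMP response element bound by CREM. No motif contains another. Of 32851 windows of 27025 genes in RefSeq (GRCm38.p6), 4.38% held the X-box half-site, 4.12% the MYB core and 7.51% the CRE core. Among axoneme genes, 9 of 44 windows (20.5%) held the X-box half-site, in 8 of the 40 genes matched, Cfap44, Cfap58, Cfap74, Dnah10, Dnah7b, Drc1, Hydin and Tekt1. In the windows of the genes that rose (720 of 939 genes matched) the shares were 7.87%, 4.89% and 7.23%, and in those of the genes that fell (435 of 578 matched) they were 2.61%, 2.09% and 6.97%. A match describes letters only. The windows of 5 germ cell genes described in the text are shown 5′ to 3′ on the gene's strand, with each match in capitals. Tex33 is shown as one of the 8 genes with the largest rise, Tekt1 for the axoneme, Piwil1 for the piRNA pathway, and Pgk2 and Ldhc for the sperm-specific enzymes. Each window is shown because it holds a match. Where a gene has 2 windows, as for Tex33, Tekt1 and Ldhc, the first that holds the motif is shown. The windows are therefore not typical of their groups, and in the piRNA list only Piwil1 and Tdrd7 held the MYB core. Tekt1, Piwil1, Pgk2 and Ldhc were not called with all libraries.
Tex33: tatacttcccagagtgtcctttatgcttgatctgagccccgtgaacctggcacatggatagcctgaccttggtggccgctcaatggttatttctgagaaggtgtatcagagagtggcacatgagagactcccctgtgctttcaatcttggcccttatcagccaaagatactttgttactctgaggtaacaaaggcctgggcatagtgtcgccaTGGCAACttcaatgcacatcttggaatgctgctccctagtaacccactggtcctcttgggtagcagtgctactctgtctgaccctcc
Tekt1: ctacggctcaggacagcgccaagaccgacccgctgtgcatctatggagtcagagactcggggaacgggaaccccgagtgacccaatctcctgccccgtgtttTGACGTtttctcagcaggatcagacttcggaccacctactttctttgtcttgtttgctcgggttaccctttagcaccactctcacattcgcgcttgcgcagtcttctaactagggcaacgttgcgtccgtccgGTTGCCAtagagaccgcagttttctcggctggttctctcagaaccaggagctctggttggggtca
Piwil1: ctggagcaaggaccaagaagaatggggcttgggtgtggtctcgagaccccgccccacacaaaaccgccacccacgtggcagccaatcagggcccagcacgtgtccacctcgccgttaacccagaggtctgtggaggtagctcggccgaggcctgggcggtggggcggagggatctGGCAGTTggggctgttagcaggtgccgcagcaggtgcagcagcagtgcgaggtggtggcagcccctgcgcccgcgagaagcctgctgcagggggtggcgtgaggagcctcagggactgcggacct
Pgk2: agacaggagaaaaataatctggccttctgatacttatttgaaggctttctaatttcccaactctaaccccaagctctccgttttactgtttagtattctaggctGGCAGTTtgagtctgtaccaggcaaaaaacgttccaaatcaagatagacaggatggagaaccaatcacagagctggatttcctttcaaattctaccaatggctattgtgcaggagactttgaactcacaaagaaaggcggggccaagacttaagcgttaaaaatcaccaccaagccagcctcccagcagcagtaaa
Ldhc: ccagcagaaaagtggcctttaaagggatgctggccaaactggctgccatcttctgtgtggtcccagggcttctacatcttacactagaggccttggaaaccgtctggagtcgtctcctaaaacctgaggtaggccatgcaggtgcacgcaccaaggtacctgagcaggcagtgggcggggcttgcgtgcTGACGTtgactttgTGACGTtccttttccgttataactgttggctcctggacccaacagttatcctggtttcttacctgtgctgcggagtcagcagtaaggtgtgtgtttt
The Tex33 window (chr15:78395863-78396162, minus strand) holds the X-box half-site in reverse, ending 31 bases before the start, and the Tekt1 window (chr11:72361833-72362132, minus strand) holds it forward, ending 9 bases before the start. The MYB core ends 69 bases before the start of Piwil1 (chr5:128735996-128736295, plus strand) and 140 bases before that of Pgk2 (chr17:40208560-40208859, minus strand). The Ldhc window (chr7:46861013-46861312, plus strand) holds the CRE core 2 times, the first of them ending 56 bases before the start. The Tekt1 window also holds the CRE core, ending 143 bases before the start.

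Spermatogonial genes were lower at P23. Of 24 genes of undifferentiated spermatogonia, 3 fell and 0 rose, 18 were lower in each P23 library, and the median log2 fold change was −1.27, against −0.09 over all genes. With both libraries that stood apart left out, 11 fell and 1 rose, and the median was −1.50. The 3 genes that fell were Sall4 (−1.89), a zinc finger factor of spermatogonial stem cells, Mcam (−1.41), a surface molecule, and Taf4b (−1.05), a component of a germ cell TFIID complex, all values being log2 fold changes. Gfra1, the co-receptor for GDNF, was 18.3, 11.6 and 20.4 CPM at P8 and 9.54, 10.7 and 6.61 CPM at P23. The ages did not overlap, but its log2 fold change of −0.91 ± 0.30 (SE) did not pass the test (edgeR adjusted p = 0.0494), and it was 0.03 when scaled on Sertoli cell genes. Zbtb16 (PLZF), a stem cell transcription factor, had a log2 fold change of −1.13 (edgeR adjusted p = 0.0138). Id4, an inhibitor of differentiation, went the other way, from 20.0, 62.4 and 16.6 CPM to 80.6, 79.3 and 54.3 CPM, with P8 replicate 2 above the lowest P23 library. The log2 fold change of Etv5 was 0.21, and its libraries overlapped.

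Genes of differentiating spermatogonia and meiotic entry were mostly lower at P23. Of 19 genes, 8 fell and 1 rose, and 14 were lower in each P23 library, with a median log2 fold change of −1.21. When both libraries that stood apart were left out, 10 fell and 4 rose. Kit, the receptor for stem cell factor and marker of differentiation, was 175, 138 and 161 CPM at P8 and 52.1, 50.5 and 70.3 CPM at P23, a log2 fold change of −1.46 ± 0.19 (SE; edgeR adjusted p = 0.0088). Every P23 library was below every P8 library. Stra8, which retinoic acid induces at meiotic entry, went from 163, 116 and 121 CPM to 36.4, 36.8 and 29.3 CPM (log2 fold change −1.97 ± 0.20, edgeR adjusted p = 0.0088). Sohlh1, a transcription factor of spermatogonial differentiation, fell by 1.92 on the log2 scale. Meiosin, the partner of STRA8 at meiotic entry, fell by 1.57, and the same direction held for Dmrt1, Dnmt3b, Rhox13 and Esx1. Scaling on Sertoli cell genes kept these directions. The exception in the list was Dmrtb1 (DMRT6), which acts when spermatogonia exit the mitotic program. It rose from 73.9, 74.2 and 68.2 CPM, nearly the same in the P8 libraries, to 743, 750 and 331 CPM (log2 fold change 3.08 ± 0.35, edgeR adjusted p = 0.0088).

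Genes of early meiotic prophase were already expressed at P8 and differed little between the ages. Of 17 genes of the synaptonemal complex and the meiotic cohesins, 0 rose and 1 fell, and the median log2 fold change was 0.10. It was −0.25 when libraries were scaled by their totals, 0.98 when scaled on Sertoli cell genes and 0.93 without both libraries that stood apart, with 7 genes rising and 1 falling in the last case. At an unadjusted p under 0.05, 4 genes of this list were higher and 3 lower. Sycp1, the transverse filament of the synaptonemal complex, was 200, 418 and 167 CPM at P8 and 251, 252 and 220 CPM at P23. P8 replicate 2 was above each P23 library and the other P8 libraries were below, so the log2 fold change was −0.12 ± 0.36 (edgeR adjusted p = 0.798) with all libraries and 0.60 without the libraries that stood apart. Sycp3 and Hormad1, which form the chromosome axis, and the cohesin Rec8 had log2 fold changes of 0.33, 0.48 and 0.06, none of them called, and the ages overlapped in each. The gene that fell was Rad21l, a cohesin of early prophase (−1.35).

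Recombination genes were in part lower at P23. Of 29 genes, 6 fell and 0 rose, 12 were lower and 3 higher in each P23 library, and the median log2 fold change was −0.35, or 0.03 without both libraries that stood apart, with 9 rising and 5 falling, and 0.47 when scaled on Sertoli cell genes. Dmc1, the meiotic recombinase that invades the homolog, fell from 78.1, 83.0 and 67.0 CPM to 25.5, 28.0 and 26.7 CPM, a log2 fold change of −1.51 ± 0.14 (SE; edgeR adjusted p = 0.0088). The replicates of this gene were close to each other at both ages, the libraries that stood apart included. Top6bl, the partner of SPO11 in breaking DNA, and Tex11, Zcwpw1, Tex15 and Trip13 also fell, by between 1.02 and 1.65 on the log2 scale. Spo11 itself was 11.7, 25.8 and 11.7 CPM at P8 and 44.9, 49.2 and 26.2 CPM at P23. P23 replicate 3 was only just above P8 replicate 2, and the log2 fold change of 1.29 did not pass the test (edgeR adjusted p = 0.0422). Msh4 and Mlh3, which act on crossovers, had log2 fold changes of 0.40 and 1.03, neither of them called.

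In the piRNA pathway, which silences transposons and processes pachytene transcripts, 1 of 24 genes rose and 1 fell, with a median log2 fold change of 1.13. In the fit without both libraries that stood apart, 15 rose and 2 fell, and the median was 1.96. Piwil1 (MIWI), the PIWI protein of pachytene spermatocytes and spermatids, was 9.06, 385 and 7.16 CPM at P8 and 907, 951 and 345 CPM at P23. P8 replicate 2 lay above P23 replicate 3, and the log2 fold change was 2.46 ± 1.53 (edgeR adjusted p = 0.223). Without both libraries it was 6.99, so the size of the change in this gene depends on those libraries. Piwil2 (MILI), which is already present in spermatogonia, had a log2 fold change of 0.34, and Piwil4 (MIWI2), which acts in fetal germ cells, one of −1.49 (edgeR adjusted p = 0.0249). Mybl1, the activator of pachytene piRNA clusters, was 34.1, 80.5 and 31.3 CPM at P8 and 138, 134 and 81.4 CPM at P23, with P23 replicate 3 just above P8 replicate 2 (log2 fold change 1.28, edgeR adjusted p = 0.0496). The member that rose was Tdrd7, a Tudor protein of the chromatoid body, from 66.7, 120 and 59.8 CPM to 488, 529 and 282 CPM, and the member that fell was Tex19.1 (log2 fold changes 2.40 and −1.15).

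Genes of late spermatocytes and the meiotic divisions were higher at P23. Of 28 genes, 6 rose and 1 fell, 23 were higher in each P23 library, and the median log2 fold change was 2.88, or 4.33 with 24 rising without both libraries that stood apart. Ccna1, the cyclin of the first meiotic division, rose from 0.381, 2.06 and 0.190 CPM to 172, 210 and 60.8 CPM (log2 fold change 7.41 ± 1.09, edgeR adjusted p = 0.00895). Its lowest P23 library was far above its highest P8 library. Ovol1 and Ovol2, transcription factors of pachytene, rose by 3.17 and 5.60 on the log2 scale, and Aurkc, the meiotic Aurora kinase, by 3.48. Pdilt, a chaperone of spermatid membrane proteins, and Tbpl1, a TBP-like factor, rose by 8.77 and 2.22. The opposite direction was seen for Cpeb1, a regulator of translation needed in early prophase, which fell by 1.06. Hspa2, the chaperone of the meiotic division, was 90.4, 653 and 71.1 CPM at P8 and 2084, 2200 and 1110 CPM at P23. Clgn (calmegin), a chaperone of the endoplasmic reticulum, was 24.3, 310 and 16.5 CPM at P8 and 1234, 1256 and 611 CPM at P23. P8 replicate 2 was several times above the other P8 libraries in both genes, and neither log2 fold change passed the test (2.73 and 3.14, edgeR adjusted p = 0.0523 and 0.0691). Tcfl5, a transcription factor of pachytene, had a log2 fold change of 2.47 (edgeR adjusted p = 0.0135).

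**Figure D2:**
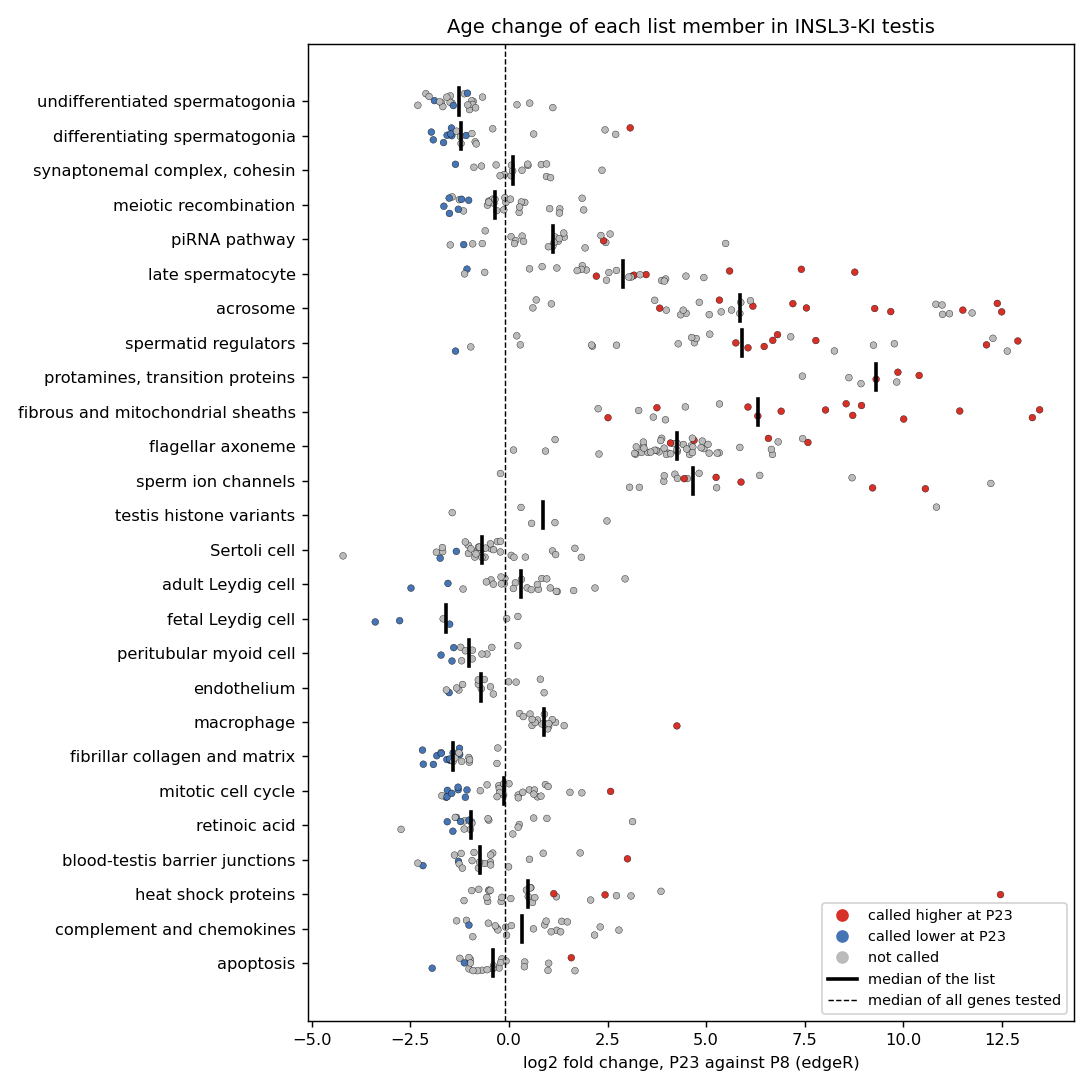
Log2 fold change from P8 to P23 of each tested gene, with 1 point per gene and 1 line per gene list, red for genes called higher, blue for genes called lower and grey for the rest. Bars mark list medians and the dashed line the median of all genes. Medians run from −1.27 in undifferentiated spermatogonia through 0.10 in the synaptonemal complex to 9.31 in the protamine list.

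The acrosome list was higher throughout. Of 30 genes, 10 rose and 0 fell, 29 were higher in each P23 library, and the median log2 fold change was 5.87. Without both libraries that stood apart 29 rose and the median was 9.03. Acrv1 (SP-10), a protein of the acrosomal matrix, was 0.102, 0.0871 and 0 CPM at P8 and 41.1, 68.6 and 9.89 CPM at P23 (log2 fold change 9.27 ± 1.13, edgeR adjusted p = 0.0088). Spaca1, needed for acrosome shape, rose from 3.15, 4.30 and 1.79 CPM to 43.1, 67.7 and 19.7 CPM, a log2 fold change of 3.82. Spaca3 and Spaca4, sperm membrane proteins, had no count at P8 and were at least 235-fold and 254-fold higher at P23. In each of these genes P23 replicate 3 was the lowest P23 library. Acr, the protease acrosin, had 11, 657 and 10 counts at P8 and 6214, 6373 and 2278 counts at P23, and Zpbp, which binds the zona pellucida, was 6.98, 31.7 and 6.24 CPM and 236, 239 and 106 CPM. The ages did not overlap in either, but with P8 replicate 2 above its group the adjusted p was 0.0723 and 0.0136 by edgeR.

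Of 26 spermatid regulators, 8 rose and 1 fell, 22 were higher in each P23 library, and the median log2 fold change was 5.91, or 5.51 with the 5 genes without a count at P8 set to their lower bound. With both libraries that stood apart left out, 22 rose, 1 fell and the median was 7.02. Sun5, which anchors the sperm head to the tail, had no count at P8 and was 16.6, 25.0 and 3.97 CPM at P23, at least 194-fold higher (edgeR adjusted p = 0.00956). Tssk2, a testis-specific kinase, went from 0.381, 0.465 and 0.571 CPM to 60.3, 89.7 and 10.3 CPM, and Klhl10, an adaptor of an ubiquitin ligase of spermatids, from 1.47, 0.436 and 0.904 CPM to 64.4, 108 and 16.5 CPM. Both rose, by 6.81 and 6.06 on the log2 scale, and P8 replicate 2 was not the highest P8 library in either. Crem, the activator of post-meiotic genes, was 12.3, 33.5 and 11.2 CPM at P8 and 144, 163 and 70.4 CPM at P23 (log2 fold change 2.73, edgeR adjusted p = 0.0126). The member that fell was the X-linked Taf7l, a TFIID subunit, by 1.35.

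Transition proteins and protamines, which compact the DNA of elongating spermatids, were nearly absent at P8 and low at P23. All 7 genes were higher in each P23 library, 3 rose (Tnp2 and the linker histones Hils1 and H1f7) or, without both libraries that stood apart, all 7, and the list summed to 0.355, 0.842 and 0.405 CPM at P8 and to 402, 512 and 30.1 CPM at P23. Tnp2 went from 0.203, 0.116 and 0.119 CPM to 122, 160 and 3.48 CPM (log2 fold change 9.31 ± 1.60, edgeR adjusted p = 0.00983). Prm1 was 0.152, 0.116 and 0 CPM at P8 and 48.6, 57.5 and 0.977 CPM at P23, and its log2 fold change of 8.62 narrowly missed the threshold (edgeR adjusted p = 0.0134). Prm2 and Tnp1, with an edgeR adjusted p of 0.0181 and 0.015, were also far lower in P23 replicate 3 than in the other P23 libraries. The median of the list was 9.31, or 8.93 with Prm3, which had no count at P8, at its lower bound.

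Flagellar genes were higher at P23. In the fibrous sheath, outer dense fibre and mitochondrial sheath list, 13 of the 19 tested genes (of 20 listed) rose and 0 fell, all 19 were higher in each P23 library, and the median log2 fold change was 6.31. When both libraries that stood apart were left out, all 19 rose. Akap4, the main protein of the fibrous sheath, was 0.178, 0.174 and 0.119 CPM at P8 and 190, 272 and 31.4 CPM at P23 (log2 fold change 10.01 ± 1.04, edgeR adjusted p = 0.0088). Odf1, of the outer dense fibres, and Smcp, of the mitochondrial sheath, rose by 8.94 and 11.43 on the log2 scale. Ropn1 and Capza3, without a count at P8, were at least 494-fold and 435-fold higher. Gpx4, the selenoprotein that becomes a structural part of the sheath and is expressed in many cells, rose by 2.51.

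Of 49 axoneme genes, 4 rose (Dnah3, Dnai2, Tekt2 and Cfap61) and 0 fell, although 46 were higher in each P23 library and the median log2 fold change was 4.26. In the fit without both libraries that stood apart, 46 rose and the median was 7.21, so the number of calls in this list rested on those libraries. Dnah8, a heavy chain of the outer dynein arm, was 18.5, 345 and 14.1 CPM at P8 and 2161, 2201 and 931 CPM at P23, and Tekt1, a filament protein of the doublet microtubules, was 1.14, 35.9 and 0.666 CPM and 287, 322 and 116 CPM. P8 replicate 2 was far above the other P8 libraries in both, and the log2 fold changes of 3.81 ± 1.35 and 4.26 ± 1.58 had an edgeR adjusted p of 0.0586 and 0.0663. Without both libraries they were 7.21 and 8.55. Tekt2, in contrast, was 3.22, 8.22 and 3.83 CPM at P8 and 139, 197 and 59.5 CPM at P23, a log2 fold change of 4.69 (edgeR adjusted p = 0.0088). Spag16, of the central pair, and Cfap43 had log2 fold changes of 4.04 and 3.70 (edgeR adjusted p = 0.03 and 0.0104).

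Of 18 tested ion channel genes of sperm (of 19 listed), 5 rose and 0 fell, 17 were higher in each P23 library, and the median log2 fold change was 4.67. Without both libraries that stood apart 17 rose, and without P8 replicate 2 alone 14. Catsper3, of the calcium channel of the flagellum, went from 0.178, 0.174 and 0.167 CPM to 10.9, 18.1 and 2.24 CPM (log2 fold change 5.88, edgeR adjusted p = 0.00895), and the potassium channel Kcnu1 (SLO3) rose by 4.44. Adcy10, the soluble adenylyl cyclase, went from 2.69, 6.79 and 2.62 CPM to 176, 221 and 64.0 CPM. Catsper1 had no count at P8 and was 15.1, 30.2 and 3.82 CPM at P23, with an edgeR adjusted p of 0.0103. Of 6 tested testis histone variants (of 8 listed), 0 rose and 0 fell by edgeR, with 2 higher and 0 lower at an unadjusted p under 0.05 and 1 rising without both libraries that stood apart, and H1f6 (H1t) reached 0.828, 1.02 and 1.09 CPM at P23.

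Among the most abundant transcripts by FPKM, which corrects for transcript length, the germ cell lactate dehydrogenase Ldhc entered the top 5 at P23. The 5 highest at P8 were Eef1a1, Clu, Aard, Rplp0 and Sparc, and at P23 Eef1a1, Ubb, Ldhc, Clu and Pabpc1. Ldhc was 2.21, 265 and 1.15 FPKM at P8 and 1726, 1732 and 865 FPKM at P23. Clu, a secreted chaperone of Sertoli cells, was 855 and 660 FPKM in P23 replicates 1 and 2 but 2066 in P23 replicate 3, within the range of the P8 libraries.

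Many housekeeping genes, among them several on the X chromosome, have a counterpart that is used in spermatocytes and spermatids. In 24 such pairs the germ cell copy had a log2 fold change above that of its somatic counterpart in 23, the exception being Rad21l with Rad21. The median log2 fold change was 2.43 for germ cell copies, 4 of which rose and 1 fell, and −0.61 for somatic copies, of which 1 rose and 2 fell. Pgk2, an autosomal copy of the X-linked glycolytic gene Pgk1, made up 0.084%, 11.4% and 0% of the FPKM of the pair at P8 and 91.0%, 92.0% and 74.3% at P23. Pgk1 was 39.7, 36.1 and 45.9 FPKM at P8 and 17.6, 16.4 and 28.8 FPKM at P23. The shares of Pgk2 did not overlap, but the gene did not pass the test with all libraries (log2 fold change 6.91 ± 2.04, edgeR adjusted p = 0.0351). For Cetn1, the germ cell centrin, the shares were 0.417%, 53.0% and 0.962% at P8 and 95.7%, 96.3% and 86.9% at P23, and for Pdha2, of the pyruvate dehydrogenase, 22.3%, 75.9% and 16.0% and 93.4%, 93.9% and 80.8%. In both, P8 replicate 2 was the only P8 library in which the germ cell copy was the larger. Gapdhs, which provides glycolysis in the flagellum, rose by 6.06, with 1.53, 1.41 and 1.44 FPKM at P8 and 70.4, 92.1 and 16.9 FPKM at P23. Aldoart1 rose by 8.56 on the log2 scale but made up at most 5.39% of its pair with Aldoa. Ldha was the only somatic copy that rose, from 40.1, 112 and 50.6 FPKM to 602, 617 and 325 FPKM (log2 fold change 3.40, edgeR adjusted p = 0.00955). Reads of near-identical copies can be split between them by the counting, so shares such as those of Pgk1 with Pgk2, Rpl10 with Rpl10l and Aldoa with Aldoart1 are uncertain. Gapdh was counted at only 3.21, 8.63 and 8.34 FPKM at P8 and 3.66, 0.643 and 6.77 FPKM at P23, far below Pgk1. The share of Gapdhs rests on these low values and is uncertain as well.

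**Figure D3:**
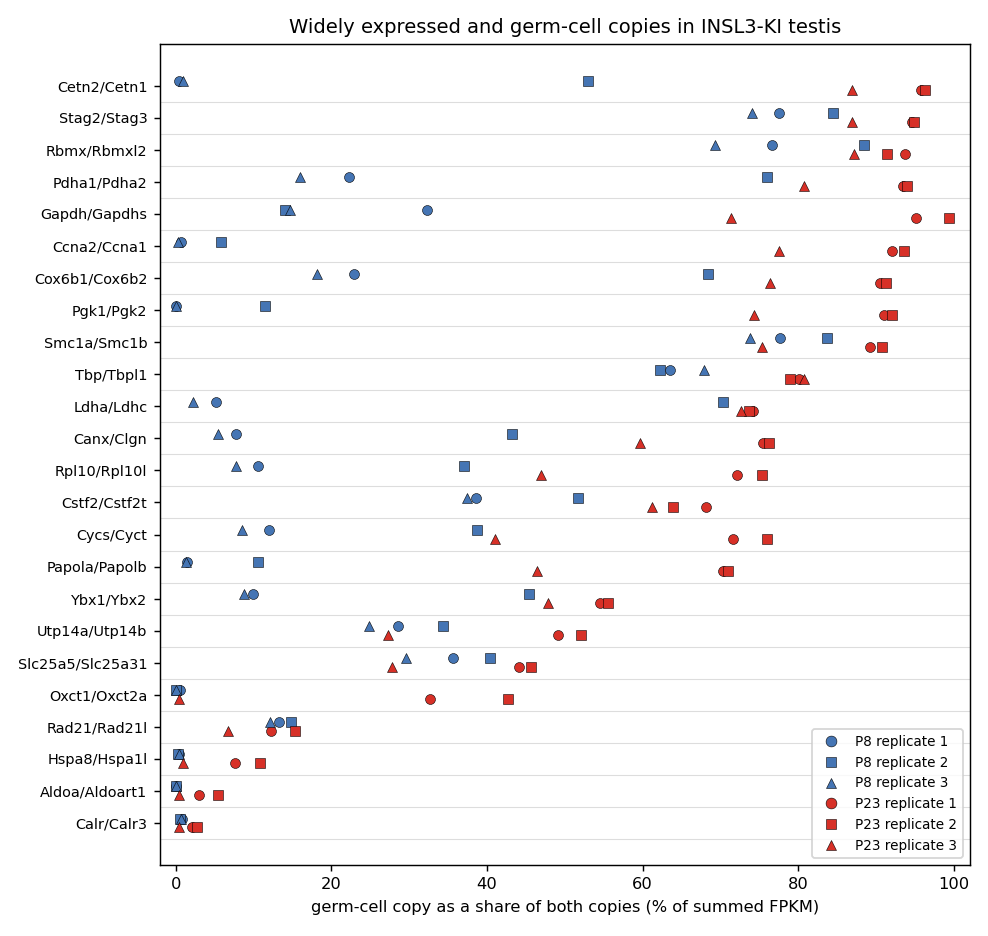
Share of the germ cell copy in the summed FPKM of each of 24 somatic and germ cell gene pairs, in percent, with blue points for P8 libraries and red points for P23 libraries. Shares lie wholly higher at P23 in 17 pairs and wholly lower in 0.

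Genes of the X chromosome, which is silenced in pachytene spermatocytes, were lower as a group. Of 745 X genes tested, 49 rose and 49 fell (6.58% each), against 5.64% and 3.35% of 15784 autosomal genes, and 44.7% were lower in each P23 library against 31.1% of autosomal genes. The median log2 fold change was −0.62 on the X and −0.06 on the autosomes. Both medians moved together with the scaling, to −0.93 and −0.39 by library totals and to 0.11 and 0.73 on Sertoli cell genes, so the X stayed lower than the autosomes while its own sign did not hold. The X contributed 3.39%, 2.76% and 3.44% of the counts in annotated genes at P8 and 1.34%, 1.29% and 2.38% at P23. P8 replicate 2 and P23 replicate 3 were again nearest to the other age. The X genes with the largest rise were spermatid genes. Cypt1 and Cylc1 had no count at P8 and were at least 302-fold and 266-fold higher, and Akap4 and Tsga8 rose by 10.01 and 6.66 on the log2 scale. Those with the largest fall were Gpc3 (−2.77), a glypican of growing tissues, Hs6st2 (−2.30), a heparan sulfate sulfotransferase, Rbm3 (−2.03), a cold-inducible RNA-binding protein, and Itm2a (−1.98). Rbm3 was 195, 145 and 236 CPM at P8 and 39.2, 49.4 and 52.5 CPM at P23, and the ages did not overlap. Of 34 Y genes tested, only Uba1y, a ubiquitin-activating enzyme of spermatogonia, was called, and it fell from 157, 128 and 130 CPM to 59.9, 55.3 and 65.5 CPM (log2 fold change −1.20, edgeR adjusted p = 0.0088). Most other Y genes belong to multicopy families whose reads cannot be assigned with certainty. On chromosome 14, 10.4% of genes rose, with a median log2 fold change of 0.20, higher than on any other chromosome.

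**Figure D4:**
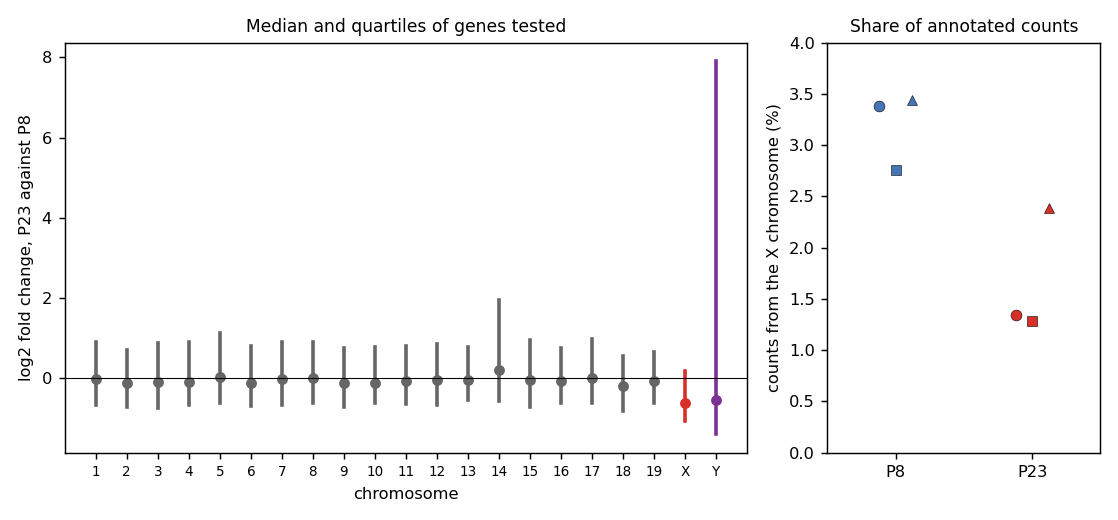
Median log2 fold change from P8 to P23 of tested genes on each chromosome, with bars for the quartiles, and at the right the share of annotated counts from the X chromosome in each library, in percent. The X median is −0.62 and the autosomal median −0.06, and chromosome 14 has the highest median at 0.20.

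Somatic gene lists differed in direction. Of 32 Sertoli cell genes, 2 fell (Cyp26b1 and Fst) and 0 rose, 11 were lower and 2 higher in each P23 library, against 31.7% lower of all genes, and the median log2 fold change was −0.67, or −1.01 with 15 falling and 3 rising without both libraries that stood apart. The list summed to 9721, 8432 and 8937 CPM at P8 and to 5204, 4076 and 10021 CPM at P23, so that P23 replicate 3 was above every P8 library. By library totals of genes in both count tables the sums were 11030, 9074 and 10410 CPM at P8 and 4419, 3462 and 9919 CPM at P23. On that scale P23 replicate 3 lay within the P8 range. Amh, the anti-Müllerian hormone of immature Sertoli cells, was 179, 100 and 176 CPM at P8 and 36.6, 28.1 and 62.8 CPM at P23 (log2 fold change −1.84 ± 0.38, edgeR adjusted p = 0.013). All P23 libraries were below all P8 libraries, and the log2 fold change was −1.15 when scaled on the Sertoli cell list. Sox9, Fshr, the FSH receptor, and Cldn11, a claudin of the blood-testis barrier, had log2 fold changes of −1.03, −0.46 and −0.47, none of them called, and those of Fshr and Cldn11 were both 0.16 when scaled on the Sertoli cell list.

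Leydig cell genes moved in different directions. Of 25 tested genes of adult Leydig cells and steroidogenesis (of 27 listed), 0 rose and 2 fell by edgeR (Hsd17b3 among them). The median log2 fold change was 0.32. At an unadjusted p under 0.05, 8 were higher, against 28.0% of all genes. In each P23 library 9 were higher and 5 lower, against 29.2% and 31.7% of all genes. The list includes the replaced gene Insl3, near the floor in all 6 libraries, which counts among both the 8 and the 9. With both libraries that stood apart left out, 5 rose and 3 fell. Cyp17a1, the enzyme that makes androgen precursors, was between 8.91 and 31.1 CPM at P8 and 75.7, 88.6 and 67.1 CPM at P23 (log2 fold change 2.18, edgeR adjusted p = 0.0168). Hsd3b6, of adult Leydig cells, was 3.81, 37.9 and 5.07 CPM at P8 and 93.6, 91.6 and 174 CPM at P23 (log2 fold change 2.95, edgeR adjusted p = 0.0449), and Cyp11a1, the first enzyme of steroidogenesis, had a log2 fold change of 1.20 (edgeR adjusted p = 0.0167). The ages did not overlap in these 3 genes, and P8 replicate 2 was the highest P8 library in Cyp17a1 and Hsd3b6. Hsd17b3, which makes testosterone, fell from 14.8, 7.61 and 10.9 CPM to 2.37, 2.07 and 1.52 CPM (log2 fold change −2.48 ± 0.35, edgeR adjusted p = 0.00895). Fetal Leydig cell genes were lower, with 3 of 6 tested genes falling (of 8 listed), or 4 without both libraries that stood apart, and a median of −1.58. Thbs2, a thrombospondin of fetal Leydig cells, fell from 54.3, 22.4 and 56.0 CPM to 3.91, 5.04 and 3.71 CPM (log2 fold change −3.39 ± 0.40, edgeR adjusted p = 0.0088), and Pcsk6 and Gpc3 fell as well. The ACTH receptor Mc2r had too few counts to be tested.

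Connective tissue genes were mostly lower at P23. Of 22 genes of fibrillar collagen and matrix, 12 fell and 0 rose (19 and 0 without both libraries that stood apart), 18 were lower in each P23 library, and the median log2 fold change was −1.41 (−0.62 when scaled on Sertoli cell genes, −1.52 without both libraries that stood apart). Col1a1 was 1216, 833 and 1389 CPM at P8 and 421, 374 and 424 CPM at P23 (log2 fold change −1.50 ± 0.23, edgeR adjusted p = 0.00896), and Col3a1 had a log2 fold change of −1.20 (edgeR adjusted p = 0.012). Eln (elastin) fell from 730, 516 and 769 CPM to 167, 179 and 102 CPM, a log2 fold change of −2.17, and Lox, which cross-links it, fell by 2.19. P23 replicate 3 was close to the other P23 libraries in Col1a1 and below them in Eln. Of 12 genes of peritubular myoid cells and smooth muscle, 3 fell and 0 rose (7 and 0 without both libraries that stood apart), with Acta2, smooth muscle actin, going from 563, 446 and 597 CPM to 168, 160 and 262 CPM. Of 15 endothelial genes, only Cdh5 (VE-cadherin) fell, by 1.52, while 5 fell and 1 rose without both libraries, and the median of −0.70 became 0.11 when scaled on Sertoli cell genes.

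Macrophage genes had higher values at P23, but few passed the test. Of 17 genes, 11 were higher in each P23 library and 0 lower, against 29.2% and 31.7% of all genes, and the median log2 fold change was 0.90. By edgeR 1 rose and 0 fell. Without both libraries that stood apart 4 rose and 0 fell, against 26.1% and 15.7% of all genes. The list summed to 151, 203 and 168 CPM at P8 and to 265, 291 and 452 CPM at P23, with P23 replicate 3 the highest. Csf1r, the receptor for the macrophage growth factor, and C1qa, of complement, had log2 fold changes of 0.72 and 0.98 (edgeR adjusted p = 0.0683 and 0.0575). The gene that rose was Aif1, which was 1.50, 0.813 and 0.928 CPM at P8 and 24.9, 31.4 and 6.01 CPM at P23. P23 replicate 3, the highest library for the list sum, was the lowest P23 library for this gene. In the list of complement and chemokines, 0 of 22 tested genes (of 30 listed) rose and 1 fell (Ackr3, a scavenger of CXCL12). At an unadjusted p under 0.05, 7 were higher, against 28.0% of all genes. When both libraries that stood apart were left out, 3 rose and 1 fell. C3, the central complement component, was 5.20, 7.32 and 10.8 CPM at P8 and 24.3, 23.9 and 56.8 CPM at P23 (log2 fold change 2.17, edgeR adjusted p = 0.0139), and Cxcl12 had a log2 fold change of −1.08.

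Of 31 genes of the mitotic cell cycle, 8 fell and 1 rose, with a median log2 fold change of −0.13. In the fit without both libraries that stood apart, 8 fell and 8 rose, against 15.7% and 26.1% of all genes, and the median was 0.28. It was 0.72 when all libraries were scaled on Sertoli cell genes. The genes that fell were mostly of DNA replication. They were Mcm2, from 190, 134 and 173 CPM to 48.5, 44.1 and 72.1 CPM (−1.59), Mcm3, Mcm4, Mcm5 and Mcm6 of the same helicase, E2f1, Ccna2 and Ccnd1. The gene that rose was Aurka, a kinase of the spindle that also serves the meiotic divisions, by 2.58. Mki67, Ccnb1 and Top2a had log2 fold changes of −0.73, 0.24 and −0.13 and were not called, and those of Mki67 and Top2a were above 0 when scaled on Sertoli cell genes. Of 20 tested genes of retinoic acid metabolism and its receptors, 5 fell and 0 rose (7 and 3 without both libraries that stood apart), with a median of −0.96. Cyp26b1, the Sertoli cell enzyme that degrades retinoic acid, fell from 329, 282 and 329 CPM to 105, 104 and 164 CPM (−1.33), and Crabp1, a binding protein, by 1.56, while Aldh1a2, which makes retinoic acid, had a log2 fold change of 0.63. In the list of junction genes of the blood-testis barrier, 2 of 21 fell (Gjb2 among them) and 1 rose (Nectin3, the nectin that spermatids use to adhere to Sertoli cells, by 3.01). Without both libraries that stood apart 9 fell and 1 rose, and without P23 replicate 3 alone 8 fell. Cldn3, Gja1 and Ocln were not called, with log2 fold changes of 1.81, −0.77 and −0.93.

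Heat shock genes were more often higher than lower at P23. The list includes Hspa2, Hspa1l and Hsfy2 of germ cells. In the fit with WT testis, 24 of the genes were tested, and the median log2 fold change was 0.55 in INSL3-KI and 0.59 in WT. The P23/P8 ratio was larger in INSL3-KI for 6 of them and smaller for 4, against 13.2% and 9.63% of all genes. The median difference of 0.03 became −1.10 when scaled on Sertoli cell genes and 0.43 by library totals. The WT P23 libraries stand in a second count table, so table and genotype cannot be told apart there. Of 25 genes, 3 rose and 0 fell, and the median log2 fold change was 0.49. In each P23 library 14 were higher and 7 lower, against 29.2% and 31.7% of all genes. With both libraries that stood apart left out, 9 rose and 2 fell. The list summed to 7321, 9774 and 6865 CPM at P8 and to 14326, 13466 and 11435 CPM at P23, and the ages did not overlap. Dnajb1, a co-chaperone of HSP70, rose from 66.5, 86.9 and 67.1 CPM to 477, 469 and 249 CPM (log2 fold change 2.44, edgeR adjusted p = 0.0088), Hsph1 rose by 1.14, and Hsfy2, a germ cell heat shock factor, was at least 248-fold higher. The inducible Hspa1b was 46.2, 34.0 and 44.5 CPM at P8 and 24.4, 17.8 and 31.2 CPM at P23 (log2 fold change −0.76, edgeR adjusted p = 0.0466). Its germ cell relative Hspa1l was 5.18, 3.51 and 4.78 CPM at P8 and 85.6, 97.9 and 11.9 CPM at P23 (log2 fold change 3.86, edgeR adjusted p = 0.0126), and Hsp90aa1 had a log2 fold change of 1.20. Of 24 apoptosis genes, 2 rose and 2 fell (5 and 7 without both libraries that stood apart). Bcl2l14, a BCL2 family member of spermatids, went from 0, 0 and 0.286 CPM to 38.6, 64.1 and 10.4 CPM (log2 fold change 8.50), and Bad rose by 1.58. Bmf and Apaf1 fell by 1.94 and 1.13, and Bax and Trp53 were not called.

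The change with age was then compared with that in INSL3-KO testis, where both ages stand in a second count table, so that a constant shift between tables cancels. Of 17052 genes tested, the P23/P8 ratio was larger in INSL3-KI for 1997 (11.7%) and smaller for 1328 (7.79%) by edgeR's test of the interaction. The fit shares 1 estimate of replicate spread between the genotypes. As a coefficient of variation the spread was 0.403 and 0.375 in INSL3-KI at P8 and P23 but 0.108 and 0.144 in INSL3-KO. How far the calls rest on the smaller spread of the INSL3-KO libraries was not tested. Scaled on Sertoli cell genes the counts were 5041 and 43, and by library totals 1740 and 585, so the balance of the directions depends on the scaling. Without single libraries they lay between 904 and 2974 and between 412 and 2817. By age alone in this fit, 1492 genes rose and 1393 fell in INSL3-KO (8.75% and 8.17%). In INSL3-KI 3176 rose and 1677 fell in the same fit, more than the 939 and 578 called from the INSL3-KI libraries alone. The change in germ cell lists differed between the genotypes. For the synaptonemal complex list the ratio was larger in INSL3-KI for 13 of 17 genes and smaller for 0, and the medians of the log2 fold changes were 0.21 and −1.92 in INSL3-KI and INSL3-KO. For late spermatocyte genes it was larger for 11 of 28 and for axoneme genes for 12 of 49, with medians of 3.01 against −0.02 and 4.39 against 0.68. Irgc1, a testis-expressed GTPase gene, was 1.09, 0.315 and 0.521 CPM at P8 and 211, 295 and 44.6 CPM at P23 in INSL3-KI, and between 0.401 and 1.18 CPM in each INSL3-KO library. Mitotic cell cycle genes had a larger ratio for 20 of 31. Macrophage genes had a smaller ratio for 14 of 17 and Sertoli cell genes for 12 of 32. The macrophage medians were 0.98 (INSL3-KI) against 2.48 (INSL3-KO), and the Sertoli cell medians −0.60 against 0.54. Scaled on Sertoli cell genes, the median difference over all genes went from −0.05 to 1.26. On that scale it was −0.38 for macrophage and −0.08 for Sertoli cell genes. The germ cell lists from the synaptonemal complex to the axoneme stayed above 0. This scaling brings the Sertoli cell list near 0 by construction and raises all other lists, so these 2 outcomes were fixed in advance. Mitochondrial genes took between 12.2% and 13.3% of the counts in the INSL3-KO libraries at P23 and between 5.63% and 6.38% at P8, against between 2.71% and 5.18% in INSL3-KI at P23. The 50 highest genes took between 20.8% and 21.9% of the counts in INSL3-KO at P23, between 12.4% and 13.3% in INSL3-KO at P8 and between 9.67% and 10.6% in INSL3-KI at P23. By library totals of genes in both count tables, the epididymis list summed to 110, 116 and 108 CPM in INSL3-KO at P8. At P23 it summed to 0.92, 0.50 and 0.23 CPM there. On that scale the sums in INSL3-KI were 0.20, 0.66 and 119 CPM at P8 and 9.90, 6.43 and 2.99 CPM at P23. The part of these differences in the comparison was not tested. The libraries labelled KO at P8 contained Insl3 counts, and what that means for their label was not tested.

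**Figure D5:**
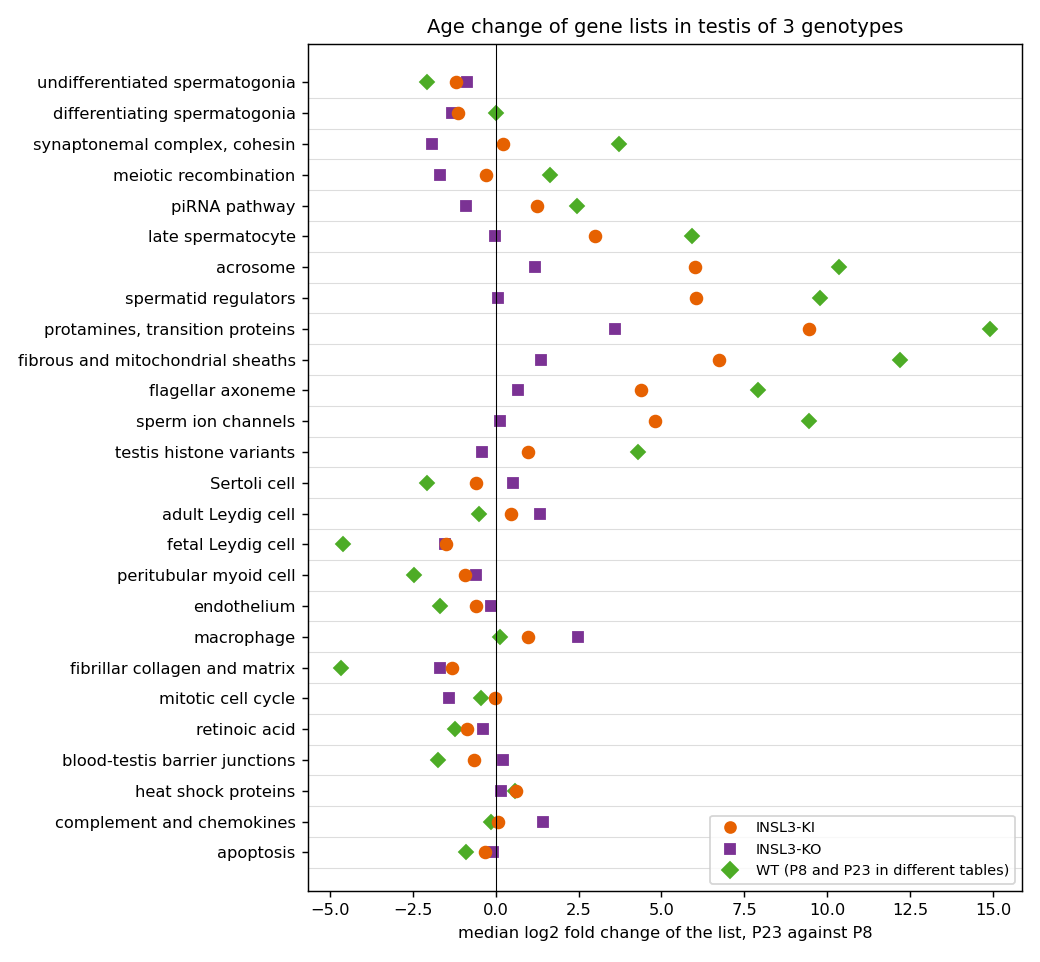
Median log2 fold change from P8 to P23 of each gene list in INSL3-KI, INSL3-KO and WT testis. Circles stand for INSL3-KI, squares for INSL3-KO and diamonds for WT, and the axoneme median is 4.39, 0.68 and 7.91 in this order.

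In the comparison with WT testis, whose P23 libraries alone are in the second table so that table and genotype cannot be told apart, 17419 genes were tested. The ratio was larger in INSL3-KI for 2298 (13.2%) and smaller for 1677 (9.63%). Scaled on Sertoli cell genes the counts were 417 and 3092, and by library totals 3357 and 1240. By age alone in this fit, 5531 genes rose and 4910 fell in WT (31.8% and 28.2%), and 3182 rose and 1705 fell in INSL3-KI. The spread between replicates, as a coefficient of variation, was 0.267 and 0.103 in WT at P8 and P23, below that in INSL3-KI, and the fit shared 1 estimate. All 17 genes of the synaptonemal complex list and 16 of 27 recombination genes had a smaller ratio in INSL3-KI, with medians of 0.16 against 3.70 and −0.34 against 1.64. The list sums below are in CPM by library totals of genes in both count tables, unlike the TMM-scaled sums above. The synaptonemal complex list summed to 1632, 2599 and 1362 at P8 and 2337, 2378 and 1804 at P23 in INSL3-KI. In WT it summed to 418, 251 and 206 at P8 and 2402, 2285 and 2345 at P23. At P23 the genotypes were close for this list, and the smaller ratio came with higher levels at P8. For axoneme genes the ratio was smaller for 5 of 49 and larger for 0, with a median difference of −3.30, or −0.36 without both libraries that stood apart. The protamine list summed to 341, 435 and 29.8 CPM in INSL3-KI and to 7453, 9114 and 8757 CPM in WT at P23. Of 22 collagen and matrix genes, 20 had a larger ratio in INSL3-KI, with a median of −1.39 against −4.68 in WT, and the median difference of 3.19 was 2.04 scaled on Sertoli cell genes and 3.60 by library totals. Markers of other tissue moved with it. At P8 the matrix list summed to 18228, 25225 and 42092 CPM and the adipocyte list to 242, 301 and 777 CPM in the WT libraries, in the same order, and the adipocyte list to 104, 32.3 and 167 CPM in INSL3-KI. At P23 the adipocyte list summed to between 19.7 and 21.6 CPM in WT. The median difference was 2.62 for the adipocyte list and 2.52 for the erythroid list, and the part of these cells in the matrix result was not tested. The P8 and P23 libraries of INSL3-KI enter both comparisons, which therefore share them.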

How the data were processed

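RNA-seq had been run on total testis RNA with a poly(A) mRNA kit and paired reads. According to the study's methods and the submitters' notes, the authors aligned reads to the mouse genome (GRCm38) with HISAT2. The deposited count tables hold raw read counts per gene, made by the authors, and the deposited FPKM columns hold values the authors scaled for transcript length and library size. The counting tool and annotation are not given in the sources used here. Columns of the authors' own comparisons were not used. Entries without a gene annotation (between 2.13% and 3.21% of the counts) were left out of library sizes and tests.

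Counts of the 6 libraries were fitted with edgeR 4.0.16 (R 4.3.3), with TMM scaling, filterByExpr (minimum count 10, minimum total 15) and the quasi-likelihood test, and p-values were adjusted over all genes by the Benjamini-Hochberg method. Calls used the study's thresholds, 0.01 for the adjusted p and 2 for the fold change. Differences in age change between genotypes were interaction terms over 12 libraries. DESeq2 1.42.0, limma 3.58.1 on log2(FPKM + 1) and log2(FPKM + 0.1), other scalings, no filter, a replicate block and leaving out each library were alternatives. Scripts were tested on simulated data. Libraries held between 33000204 and 42629270 counts, and the parts of depth and of replicate spread in the precision were not tested. A fold against libraries at 0 was computed against a floor of 3 counts per library, which covers counting error only. Deviations of P8 and P23 libraries of the same number correlated at r = −0.21, 0.23 and 0.27, and those of unlike numbers at r from −0.33 to 0.32. With 3 replicates per age these values cannot decide whether the numbers pair libraries. The labels state no pairing, and none was used in the main fit.

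Genes were named if they were lead genes of a list or of a gene pair, among the 8 called genes with the largest change in each direction (no overlap, at least 10 CPM, a gene symbol), among the 5 highest by FPKM at each age, among the 4 X genes with the largest change in each direction, called Y genes, among the 5 largest differences from INSL3-KO in each direction, members against the majority of their list, or Insl3 and Rxfp2. Other called members were named after their values were seen. The lists, pairs, motifs and members were chosen with earlier results of these data known. Promoter windows are from RefSeq on GRCm38.p6. Some genes that these rules name, and 1 gene pair, are not reported here.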

Additional observations from a re-analysis of the deposited data

Results flagged for a closer look

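The change from P8 to P23 differed between genotypes by edgeR's test of the interaction. The P23/P8 ratio was larger in INSL3-KI than in INSL3-KO for 1997 genes and smaller for 1328, and larger than in WT for 2298 genes and smaller for 1677. In both fits the INSL3-KI libraries varied more than the others, and the estimate of spread was shared. Of the 10 genes with the largest differences from INSL3-KO, 5 had a larger ratio in INSL3-KI. Fam71d was 57.1, 89.1 and 9.16 CPM in INSL3-KI at P23 and at most 0.279 CPM in INSL3-KO, with a difference of log2 fold changes of 12.39 (edgeR adjusted p = 0.00288). The difference was 11.77 for Bcl2l14, 8.67 for Pmfbp1, a protein of the sperm neck, and 8.46 for Irgc1. For Tex33 it was 11.71, a fitted value that depends on the prior count because the gene had no count in INSL3-KI at P8. In all 5 genes P23 replicate 3 was the lowest INSL3-KI library of its age.

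The other 5 genes had a smaller ratio in INSL3-KI. Aqp8, a water channel, was 53.0, 34.5 and 100.2 CPM in INSL3-KI and 204, 214 and 208 CPM in INSL3-KO at P23, with a difference of −5.04 (edgeR adjusted p = 0.00761). Serpina3n, a protease inhibitor, differed by −4.92, the kallikreins Klk1b21 and Klk1b24 by −4.75 and −4.01, and the Leydig cell enzyme Hsd3b6 by −3.98. The kallikreins belong to a family of close copies and are uncertain. P23 replicate 3 was the highest INSL3-KI library of its age in all 5. The libraries labelled KO at P8 held Insl3 counts, whose part in these differences was not tested.

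Of 4086 entries without a gene annotation, 221 were higher and 26 lower at P23 by edgeR. Their median log2 fold change was 1.05, against −0.19 for annotated genes in the same fit, and 43.2% were higher and 16.4% lower in each P23 library.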

How the results depend on the processing

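The number of calls between P8 and P23 moved with most alternatives, while directions mostly held. Leaving out single libraries gave between 0 and 2887 rising genes and between 0 and 1663 falling genes. With both libraries that stood apart left out, an alternative chosen after seeing the data, 4431 rose and 2662 fell, and with library weights in limma voom, also chosen after seeing the data, 4089 and 3562. DESeq2 gave 3580 and 1446, all testis groups in 1 fit 3053 and 1714, and limma 1457 and 1259 with a pseudocount of 1 FPKM or 1816 and 1629 with 0.1 FPKM. Scaling by library totals gave 966 falling genes and scaling on Sertoli cell genes 0 in either direction with 7619 genes at an unadjusted p under 0.05. At a fold change of at least 4, 114 fell. The labels state no pairing of replicate numbers between ages, and the replicate block gave 1921 rising and 813 falling genes. The cause of these changes was not tested.

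For INSL3-KI against INSL3-KO, leaving out single libraries gave between 904 and 2974 larger and between 412 and 2817 smaller ratios. Without both libraries that stood apart the counts were 3744 and 3062, scaled on Sertoli cell genes 5041 and 43, and by library totals 585 ratios were smaller. Against WT, single libraries gave between 1734 and 2535 larger and between 1151 and 1830 smaller ratios, and scaling on Sertoli cell genes 417 and 3092.

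Of 178 genes, direction changed in 29 of the combinations of gene and alternative. DESeq2 gave no adjusted p for Piwil1 and was left out for that gene. Scaled on Sertoli cell genes, the log2 fold change was 0.16 for Cldn11, 0.16 for Fshr, 0.026 for Gfra1, 0.13 for Mki67, 0.12 for Pgk1, 0.68 for Sycp1, 0.73 for Top2a and 0.27 for Trp53. By library totals and with limma at either pseudocount it was −0.12, −0.13 and −0.14 for Ccnb1, −0.090, −0.16 and −0.18 for Etv5 and −0.26, −0.27 and −0.28 for Rec8. For Sycp1 it was 0.041 with DESeq2, 0.0034 with the replicate block, 0.60 without both libraries and 0.35 with library weights, and for Top2a 0.029 with DESeq2, 0.28 without both and 0.091 with weights. Without single libraries it ranged from −0.0615 to 0.20 for Rec8, from −0.37 to 0.38 for Sycp1 and from −0.25 to 0.14 for Top2a.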
